A study of Drosophila melanogaster with 2 samples.

Results

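The genes described here encode negative cofactor 2 (NC2), the TATA-binding protein (TBP) family and the proteins that hold, move or replace TBP at promoters. The set was chosen by name, and its 10 members are NC2alpha, NC2beta, Tbp, Trf, Trf2, Hel89B, TfIIA-L, TfIIA-S, TfIIB and Brf, of 18164 annotated genes on the 6 chromosomes used, 13945 of them protein-coding. The study mapped NC2alpha itself, by anti-GFP chromatin immunoprecipitation and sequencing (ChIP-seq) in whole Drosophila melanogaster embryos aged 0 to 24 h, with both sexes mixed, in 2 biological replicates. The antibody field of the labels names NC2alpha where their description gives anti-GFP, which is followed here, and whether native protein was also captured cannot be told. All samples came from 1 stable transgenic line that expresses NC2alpha with eGFP at its C terminus. The labels name neither the promoter that drives the fusion nor whether it stands beside or in place of the native gene, and no untagged line, mutant or other stage is among the samples. The peak lists thus show where the tagged protein was found along these genes, and no group can be set against another.

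NC2 is a pair of histone-fold proteins, NC2alpha and NC2beta, that clamps TBP on DNA. It blocks the entry of TFIIA and TFIIB, the factors that stabilise TBP and that bring RNA polymerase II to the promoter, and in Drosophila extracts it was also found to activate promoters with a downstream promoter element. Hel89B is the fly Mot1, an ATPase that strips TBP from DNA. Trf and Trf2 are TBP relatives: Trf pairs with Brf in the fly RNA polymerase III factor TFIIIB, and Trf2 serves promoters without a TATA box, including those of ribosomal protein genes.

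The authors' optimal list, kept by their reproducibility filter, is exactly the 2174 strongest of the 30000 peaks called on pooled replicates. A peak is thus in it by its pooled signal. Of its peaks, 1192 lay no more than 500 bp from an annotated transcription start site (TSS), and 1180 of these had a value in both replicates. Of the 10 genes, 4 had an optimal peak within that distance of a TSS: NC2alpha, Brf, Hel89B and TfIIA-S. Over all protein-coding genes the share was 10.5% (1460 of 13945). Trf2, TfIIA-L and TfIIB had a peak at a TSS only in the longer list called on pooled replicates before that filter. NC2beta, Tbp and Trf had none in either list, while 51.3% of protein-coding genes had a pooled peak at a TSS. In the optimal and pooled lists, a peak thus lay at the start of the NC2alpha gene but not at that of NC2beta or Tbp. The NC2alpha peak is in an interval shared with divergent genes and cannot be credited to NC2alpha alone. No test was made of these counts, since the genes were chosen by name and the study has 1 group.

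Upstream sequences of 3 of the genes with an optimal peak are given from the Release 6 (dm6) genome. Each is read 5′ to 3′ on the coding strand of the gene and ends 1 base before its TSS. The runs were not cut at the peak ends, and they do not show which bases NC2alpha occupied. The Brf run (chr3R:17391338-17391593, minus strand, 256 bases) is the whole interval up to the start of the divergent gene sds22, and 33.2% of its bases are G or C. Capitals in it mark a match to the Ohler 7 motif (CATCNCTA, N being any base). The interval also overlaps an exon of the antisense RNA gene asRNA:CR44160. The Hel89B run (chr3R:15972998-15973297, plus strand, 300 bases, 43.0% G or C) holds the summit 142 bp before the TSS. The TfIIA-S run (chr3R:23891061-23891210, minus strand, 150 bases, 46.0% G or C) holds the summit 35 bp before the TSS. No searched motif matched in the Hel89B and TfIIA-S promoters.
Brf: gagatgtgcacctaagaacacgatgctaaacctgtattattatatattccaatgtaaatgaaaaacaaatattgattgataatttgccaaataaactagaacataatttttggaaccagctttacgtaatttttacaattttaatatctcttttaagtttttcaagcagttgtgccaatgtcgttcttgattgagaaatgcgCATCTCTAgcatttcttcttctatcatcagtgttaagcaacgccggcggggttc
Hel89B: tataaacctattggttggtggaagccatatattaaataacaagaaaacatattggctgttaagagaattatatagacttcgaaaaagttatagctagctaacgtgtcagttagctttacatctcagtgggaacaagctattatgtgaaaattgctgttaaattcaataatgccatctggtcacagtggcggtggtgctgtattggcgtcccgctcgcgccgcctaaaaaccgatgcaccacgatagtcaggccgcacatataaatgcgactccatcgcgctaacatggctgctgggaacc
TfIIA-S: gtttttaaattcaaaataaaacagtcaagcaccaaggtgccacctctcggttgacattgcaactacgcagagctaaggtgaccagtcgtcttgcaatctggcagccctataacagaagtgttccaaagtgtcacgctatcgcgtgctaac

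Runs from 3 genes outside the optimal list are shown for contrast, on the same build and strand convention. The TfIIA-L run (chr3R:27253183-27253429, plus strand, 247 bases, 29.6% G or C) spans the interval from the start of the divergent gene pll to the main TfIIA-L TSS. Capitals in it mark a match to Ohler 6 (GTAT, A or T, TTT) on the opposite strand. The TfIIB run (chr2L:10430919-10431218, plus strand, 300 bases, 31.3% G or C) starts 419 bp and ends 120 bp before the TSS, and it holds the weak TfIIB summit. The NC2beta run (chr2L:15007513-15007812, plus strand, 300 bases) ends 1 base before the TSS and holds no summit of any list. It is made of A and T for the most part, with 16.3% G or C.
TfIIA-L: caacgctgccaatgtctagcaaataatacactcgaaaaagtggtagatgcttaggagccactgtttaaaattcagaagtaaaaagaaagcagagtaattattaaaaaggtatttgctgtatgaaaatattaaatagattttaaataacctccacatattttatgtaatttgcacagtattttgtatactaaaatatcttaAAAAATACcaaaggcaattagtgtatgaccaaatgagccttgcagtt
TfIIB: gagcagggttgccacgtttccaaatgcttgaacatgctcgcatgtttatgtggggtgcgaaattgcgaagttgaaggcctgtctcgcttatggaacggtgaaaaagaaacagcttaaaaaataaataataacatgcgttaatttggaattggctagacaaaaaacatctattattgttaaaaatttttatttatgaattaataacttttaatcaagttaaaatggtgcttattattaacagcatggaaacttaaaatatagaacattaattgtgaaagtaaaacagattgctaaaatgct
NC2beta: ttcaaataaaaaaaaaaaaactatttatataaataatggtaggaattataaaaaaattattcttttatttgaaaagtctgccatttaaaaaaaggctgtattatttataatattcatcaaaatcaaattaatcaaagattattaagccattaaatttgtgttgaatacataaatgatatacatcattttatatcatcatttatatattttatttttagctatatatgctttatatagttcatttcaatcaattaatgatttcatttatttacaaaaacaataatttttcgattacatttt

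Base composition set the NC2beta promoter apart from the other genes. Of 13692 protein-coding promoters, only 4 had a lower G and C share than NC2beta in the 300 bases before the TSS. TfIIB was also low, with 24.7% and 221 promoters below it. Tbp had 30.0%, TfIIA-L 33.0% and Brf 33.3%, and NC2alpha (39.7%), Trf2 (41.3%), Hel89B (43.0%), TfIIA-S (44.0%) and Trf (45.7%) lay above the median of all promoters, 37.3%. Promoters with an optimal peak had a median of 37.3%, with quartiles of 33.7% and 43.0%. Those with no pooled peak also had a median of 37.3%, with wider quartiles of 32.3% and 44.0%. The medians were thus equal, and the low tail in which NC2beta lies was not compared. The part of base composition in the missing NC2beta peak was not tested.

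The NC2alpha gene (FBgn0034650; plus strand of 2R, 21670152 to 21671593) had the strongest peak of the set. Signal here is the value the authors gave each peak. Its scale was not given, so it serves to order the peaks of 1 list. A mean and SD over the replicate lists thus also hold any difference between their scales. The pooled signal was 369.7, and the replicate lists gave 201.2 and 185.4 in replicates 1 and 2 (193 ± 11.2, SD, n = 2). The peak ranked 76 of the 2174 optimal peaks and 47 of the 1192 at a TSS, with CG3437 and CG3552 (374.4) just above it and CG17896 (365.5) just below. Optimal peaks at a TSS had a median of 120.0 and an upper quartile of 174.3, so the NC2alpha peak stood in the upper tail.

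The NC2alpha summit lay 93 bp before its TSS, inside an interval of 236 bp that it shares with the divergent unit of PIG-M, a mannosyltransferase of membrane anchor synthesis, and CG42379, CG42380 and CG42381. The pooled summit was 143 bp from the starts on that side, nearer to NC2alpha. In replicate 2 the main summit was 38 bp from them, nearer to the divergent unit. The replicates placed it 66 bp and 198 bp before the NC2alpha TSS, which is wider apart than for the other optimal TSS peaks of the set, and each also listed a weaker summit near the start, of 34.49 and 55.96. CG15676, which starts 107 bp beyond the far end of NC2alpha, had a pooled signal of 28.38, and no pooled summit lay inside NC2alpha. Whether the tagged NC2alpha stands beside the native gene is not given. If it does, signal over the tagged and native copies cannot be told apart in the lists.

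**Figure D1:**
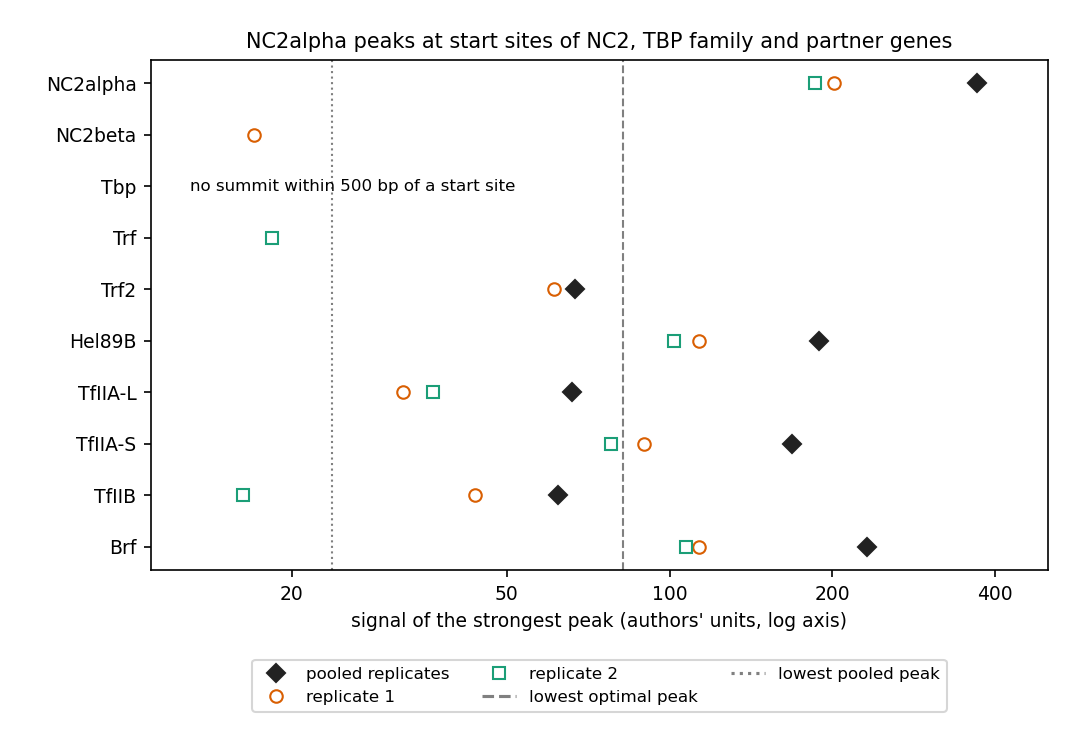
Signal of the strongest peak within 500 bp of a TSS of each gene (authors' units, log axis) in the pooled list and in the list of each replicate, with dashed and dotted lines at the lowest optimal (81.95) and lowest pooled (23.78) signal. NC2alpha, Hel89B, TfIIA-S and Brf lie right of the dashed line in the pooled list, while NC2beta and Trf appear in a single replicate list only and Tbp in none.

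NC2beta (FBgn0028926; 2L, 15007813 to 15008538, plus strand), the partner subunit, had no optimal or pooled summit at its TSS or inside it. Its only entry was in the list of replicate 1, with a signal of 17.06 at rank 22907 of 30000, 448 bp into the gene; the replicate 2 list had none there. The nearest pooled summit lay 1829 bp upstream, at DCTN5-p25, a dynactin subunit gene, with a signal of 28.22, and the nearest optimal summit was 301377 bp away. Ankrd49, which starts 382 bp away on the other strand, had no pooled peak, so this divergent interval was empty from both sides. THG, the tRNA guanylyltransferase gene beyond the other end of NC2beta, had a pooled signal of 74.06.

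Tbp (FBgn0003687; 2R, 21686192 to 21687642, minus strand), the protein on which NC2 sits, was listed at no TSS in any of the 4 lists. The nearest pooled summit was 940 bp before its TSS and had a signal of 43.38 at the shared start of BaraC and CG10307. A summit of 15.58 in the replicate 1 list, 903 bp into the gene, was its sole entry. The TSSs of Tbp and NC2alpha lie 17490 bp apart, with other genes between, and the optimal summit nearest to the Tbp TSS was a strong one, of 581.4, 15717 bp upstream. The 14598 bp between Tbp and NC2alpha held 9 pooled summits, the highest at eIF3k (73.54), a translation initiation factor subunit.

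Trf (FBgn0010287; 2L, 8072895 to 8073948, plus strand) shares a start region of 47 bp with MED20, a Mediator subunit gene, and neither had a pooled peak at a TSS. A pooled summit of 35.86 (rank 12788) lay 506 bp into Trf, just beyond the 500 bp window, with 16.01 and 18.41 in replicates 1 and 2, the second of them 478 bp from the TSS. The replicate 2 list also held a summit of 14.66, close to its lowest value of 12.18, 178 bp before the Trf TSS. The nearest optimal summit was 71058 bp away.

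Trf2 (FBgn0261793; X, 8409272 to 8433011, plus strand) had its strongest pooled summit 20 bp after its first TSS, in the 5′ untranslated region, with a signal of 66.76 at rank 3168. The main summit of no other gene of the set lay closer to that gene's own TSS. It came from 1 replicate: the replicate 1 list gave 61.09 at rank 1451, 12 bp before the TSS, and the replicate 2 list held no overlapping peak. A weaker summit of 34.37 lay 228 bp after the TSS. Of the 1110 pooled TSS peaks ranked 2175 to 4348, 92.9% had a peak in both replicates and 6.94% in replicate 1 only, as Trf2 did.

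Hel89B (FBgn0022787; 3R, 15973298 to 15983451, plus strand), the Mot1 gene, had an optimal peak of 189 at rank 402, 142 bp before its TSS. The replicate lists gave 113.5 and 102.0 (108 ± 8.17, SD, n = 2), with summits 102 bp and 177 bp before the TSS. The interval of 385 bp is shared with mor, which encodes a core subunit of the SWI/SNF remodelling complex, and the summit was 243 bp from the mor TSS. The peaks next in rank at a TSS, of Dph4 above and mtSSB below, had the same signal of 189 at this rounding. A further optimal summit of 82.77, close to the lowest optimal signal of 81.95, lay in a Hel89B intron, 1126 bp after the TSS, with 38.16 and 54.07 in replicates 1 and 2 (46.1 ± 11.3, SD, n = 2).

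TfIIA-S and TfIIA-L encode the small and the large subunit of TFIIA. TfIIA-S (FBgn0013347; 3R, 23890388 to 23891060, minus strand) had an optimal peak of 168.4 at rank 536, with 89.64 and 77.83 in the replicates (83.7 ± 8.35, SD, n = 2). The summit was 35 bp before the TSS, and the replicates placed it 42 bp and 18 bp before it. TfIIA-S was the only gene of the set whose optimal peak at its own TSS was shared with no other gene's TSS. Its neighbours in rank were Pdi with asRNA:CR45396 (168.6) and Rgl (168.3), and Pli, whose TSS lies 336 bp beyond the far end of TfIIA-S, had 71.57.

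TfIIA-L (FBgn0011289; 3R, 27251112 to 27256463, plus strand) had a pooled signal of 66.12 at rank 3231, with 32.14 and 36.56 in replicates 1 and 2 (34.4 ± 3.12, SD, n = 2). The summit was 248 bp before the main TfIIA-L TSS and 0 bp from that of pll, the pelle kinase gene of the Toll pathway, which starts between the TfIIA-L start sites on the other strand. A weaker summit of 51.19 lay 310 bp after the upstream TfIIA-L TSS, 415 bp before that of TTLL6B, and one of 26.82 lay 14 bp before the main TSS. In the replicate 2 list TfIIA-L ranked 2039, inside the first 2174 peaks, against 5803 in the replicate 1 list.

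TfIIB (FBgn0004915; 2L, 10431338 to 10433116, plus strand) had the weakest TSS signal among the genes with a pooled peak, 62.23 at rank 3652. The replicate lists gave 43.61 and 16.24 (29.9 ± 19.4, SD, n = 2), a ratio of 2.69, and the value in replicate 2 ranked 15556. The summit lay 359 bp before the TfIIB TSS but 61 bp before that of Bug22, a ciliary protein gene 420 bp away on the other strand. Of the genes for the factors that NC2 keeps off TBP, only TfIIA-S thus had an optimal peak. The strongest pooled TSS summits of TfIIA-L and TfIIB lay nearer to the divergent gene. The weaker TfIIA-L summits at a TSS, of 51.19 and 26.82, lay nearer to a TfIIA-L start.

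Brf (FBgn0038499; 3R, 17374833 to 17391337, minus strand), the TFIIIB subunit, had the second strongest signal of the set, 231.8 at rank 240, level with Vha100-2 and Vti1b (231.8) and with tutl (232.0). The replicate lists gave 113.4 and 107.4 (110 ± 4.31, SD, n = 2), the ratio closest to 1 among the main TSS peaks of the set, with summits 128 bp and 134 bp before the TSS. The pooled summit was 134 bp before the Brf TSS and 123 bp before that of sds22, a protein phosphatase regulator, almost midway in the interval of 257 bp. Where only the nearest TSS counted, the peak went to sds22 and not to Brf. Bdp1, another TFIIIB subunit gene, had a stronger signal, 325.2 at rank 101, with 156.6 and 169.4 in replicates 1 and 2, 121 bp before its TSS and shared with CG6565.

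**Figure D2:**
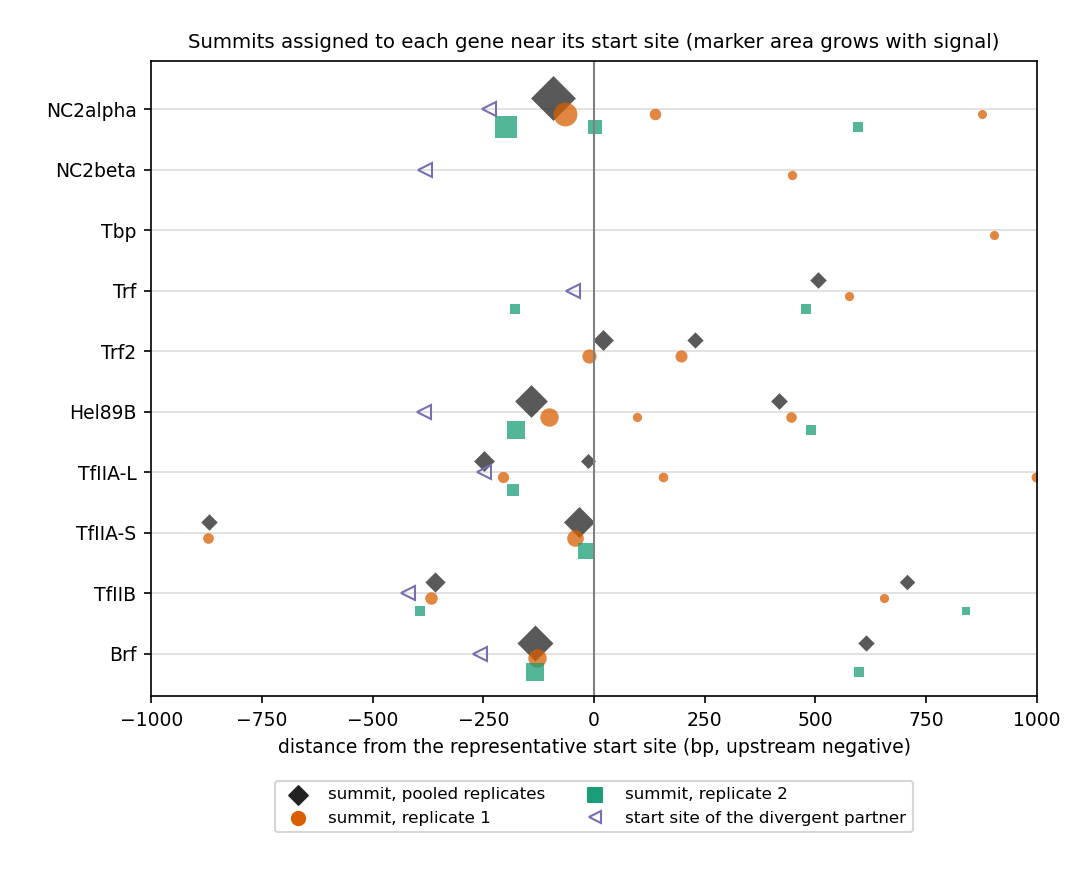
Summits assigned to each gene by distance from its representative TSS (bp, upstream negative), in the pooled list and the list of each replicate, with open triangles at the start of the divergent partner gene. The main summits of NC2alpha, Hel89B and Brf fall between both starts, that of TfIIA-S falls 35 bp before its TSS, and those of TfIIA-L and TfIIB fall at or near the partner's start.

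Many of the genes have a divergent partner. A protein-coding gene on the other strand started within 500 bp upstream of 7 of the 10 genes, beside 25.8% of all protein-coding genes (3597 of 13945), and 3 of these 7 had an optimal peak; over all protein-coding genes with such a partner the share was 19.6%. Of the 3 genes without one, TfIIA-S had an optimal peak, beside 7.31% of all protein-coding genes without a partner. Summits in shared intervals cannot be credited to 1 of the genes. NC2beta and Trf also have divergent partners and had no pooled peak at a TSS, so the arrangement did not go with a peak throughout.

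The 4 optimal TSS peaks had similar replicate ratios, all between the lower quartile and the median of optimal TSS peaks. The signal scale of each replicate list was not given, so nearness of a ratio to 1 does not measure agreement. The ratio of replicate 1 to replicate 2 was 1.06 for Brf, 1.09 for NC2alpha, 1.11 for Hel89B and 1.15 for TfIIA-S, and over the 1180 optimal TSS peaks with both values its median was 1.29, with quartiles of 1.02 and 1.74. Order within the set was the same in both replicates for NC2alpha (201.2 and 185.4) above and TfIIA-S (89.64 and 77.83) below, while Brf and Hel89B could not be ordered: they had 113.4 and 113.5 in replicate 1, and 107.4 and 102.0 in replicate 2. Counting each replicate list whole, 8 of the 10 genes had a replicate 1 peak at a TSS, beside 52.9% of protein-coding genes, and 7 had a replicate 2 peak, beside 45.0%. The 7 genes with a pooled TSS peak were all among the 4348 strongest pooled peaks, a depth at which 18.8% of protein-coding genes had one.

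**Figure D3:**
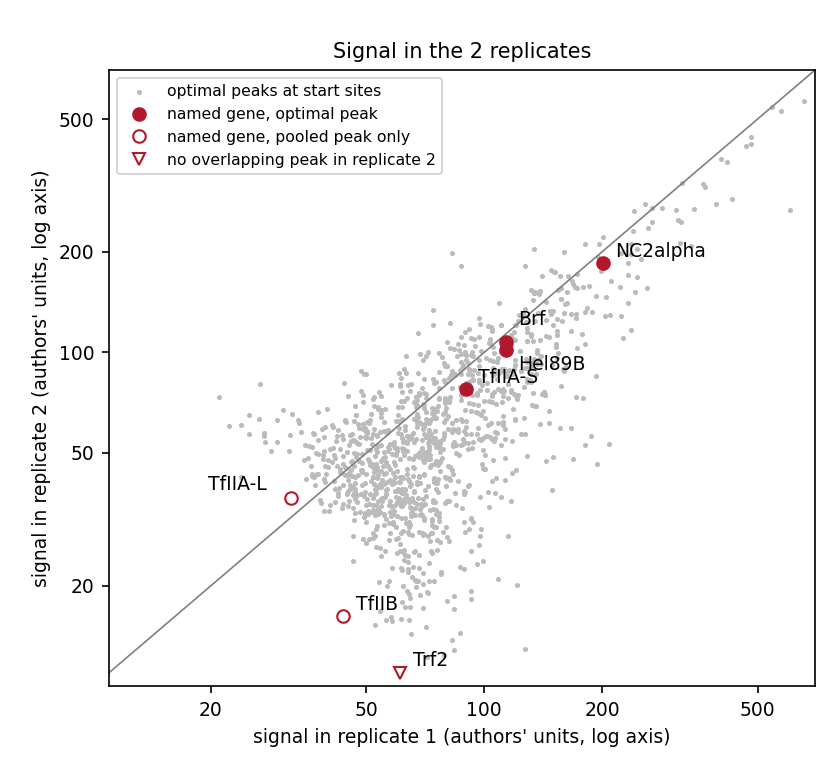
Signal in replicate 1 (horizontal) and in replicate 2 (vertical), both in authors' units on log axes, for optimal peaks at TSSs (grey) and for the strongest TSS peak of each named gene (red), with the line of equality. NC2alpha, Brf, Hel89B and TfIIA-S lie close to the line, TfIIB lies well below it (43.61 against 16.24), and Trf2 has no replicate 2 value.

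Summits inside the genes, away from any of their TSSs, were most numerous in the 2 longest genes. Trf2 (23740 bp), Brf (16505 bp) and Hel89B (10154 bp) are long beside a median of 2166 bp for protein-coding genes. Trf2 held 9 such pooled summits, of 25.28 to 49.89, and all 9 had a peak in replicate 1 but only 4 in replicate 2. Its strongest lay 50 bp after the start of the nested gene lawc. Brf held 7, of 24.39 to 92.45, and there all 7 had a peak in replicate 2 and 3 in replicate 1. The strongest was an optimal peak in an intron, 4716 bp from the TSS, with 53.96 and 36.52 in replicates 1 and 2 (45.2 ± 12.3, SD, n = 2), and the next, of 79.23 at rank 2308, lay 4 bp before a start of the nested gene lute and missed the optimal list narrowly. With the summits inside the genes and those nearest to them added, the genes with an optimal summit were still 4, beside 15.0% of protein-coding genes, and they held 6 optimal summits in all.

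**Figure D4:**
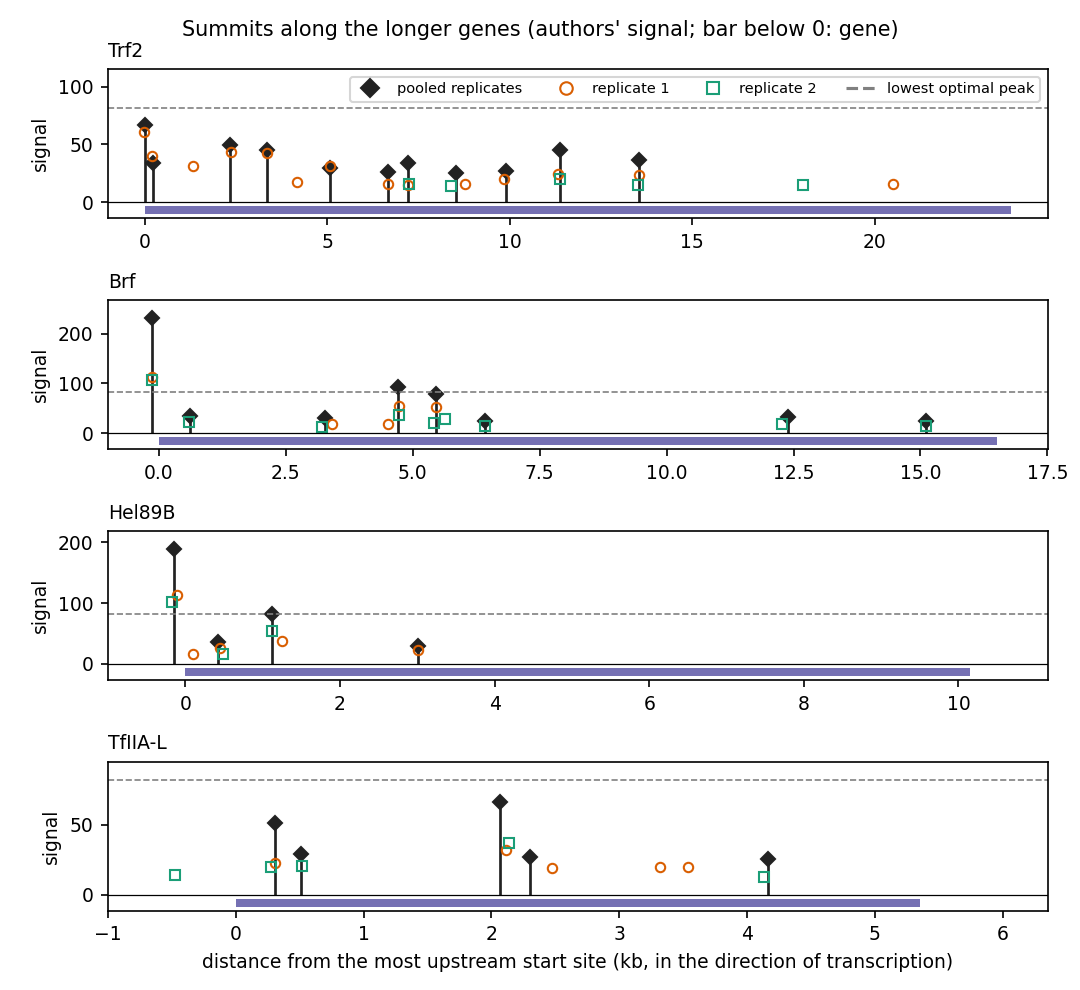
Summits along Trf2, Brf, Hel89B and TfIIA-L by distance from the most upstream TSS (kb), with signal in authors' units on the vertical axis, the bar below 0 showing the gene and the dashed line the lowest optimal signal. Brf and Hel89B have 1 dominant summit upstream of the start, a pooled intronic summit above the dashed line and weaker summits below it. All summits of Trf2 and TfIIA-L lie below the dashed line.

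Of the 10 promoters, 5 held at least 1 of the 10 motifs searched, beside 56.5% of all 13692 promoters, so the set was near the background. The TATA box, to which TBP binds, was searched as C or G, TATA, A or T, A, A or T, first base 45 to 20 bp before the TSS. It matched in none of the 10 promoters and in 7.26% of all. The search was exact: Hel89B holds ATATAAAT in that window, which fails only at its first letter. Near matches were not counted. The Initiator (TCA, G or T, T, pyrimidine, first base from 12 bp before to 8 bp after the TSS) matched in none and in 14.5% of all. The downstream promoter element (purine, G, A or T, pyrimidine, any base but T, 28 bases into the transcript counted from the Initiator A) and the TCT motif of ribosomal protein genes (CTTT between pairs of pyrimidines) matched in none, and in 3.32% and 1.21% of all.

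The matches that were found belong to motifs of broadly expressed genes. Tbp held a DNA replication-related element (ATCGAT between A or T, from 150 bp before to 50 bp after the TSS; 14.1% of all promoters) 33 bp before its TSS. Trf, Trf2 and TfIIA-L held Ohler 6 (8.75% of all, same window), Trf also held Ohler 1 (GGTCACAC, from 80 bp before to 50 bp after; 6.38%), and Brf held Ohler 7 (4.67%, same window as Ohler 1) 54 bp before its TSS. The E-box CAGCTG and GAGAGAG, searched from 150 bp before to 50 bp after the TSS, matched in none of the 10 and in 14.4% and 4.81% of all. These 6 motifs were searched on both strands, and no 2 matches in the set overlapped. These matches are letters in a window and not binding sites.

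TFIID is the complex of TBP and its associated factors that recognises RNA polymerase II promoters. Of its 14 somatic subunit genes other than Tbp, 2 had an optimal peak at a TSS and 11 a pooled one, beside 10.5% and 51.3% of all protein-coding genes, and the first count is near that background. Taf4, the scaffold subunit, had 103.4 at rank 1377, 109 bp before its TSS, with 86.55 and 22.81 in replicates 1 and 2, a ratio of 3.79. Taf7 had 94.91 at rank 1633, 50 bp before its TSS and shared with EMC1, with 43.42 and 56.56. Taking as many of the strongest peaks from 1 replicate alone left 1 TFIID gene in either case, Taf4 in replicate 1 and Taf7 in replicate 2. Taf1, the largest subunit, had 46.71, and Taf3, Taf9 and Taf13 had no pooled peak at a TSS.

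The 5 testis paralogues of TFIID subunits, which act in spermatocytes, are nht, can, mia, sa and Taf12L. They had neither an optimal nor a pooled peak at a TSS, beside 10.5% and 51.3% of protein-coding genes. The replicate 1 list held a TSS peak for mia and sa, and the replicate 2 list for nht. Of 6 genes for partners of TBP or Trf at RNA polymerases I and III, Bdp1 and TAF1C-like had an optimal peak, the second with 100.3 at rank 1458, 261 bp before its TSS and shared with MESK2, and with 55.36 and 43.38 in replicates 1 and 2. TAF1B (50.22), Pbp95 (46.37) and Pbp49 (33.77) had pooled peaks and Pbp45 had none. The TFIIA paralogues TfIIA-S-2 (29.34) and moon (none) and the other histone-fold genes Nf-YC (59.96), Chrac-14 (40.02), Nf-YB (33.05) and Chrac-16 (none) had no optimal peak. Over the 31 genes of these lists, 4 had an optimal and 20 a pooled peak at a TSS, beside 10.5% and 51.3% of protein-coding genes.

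**Figure D5:**
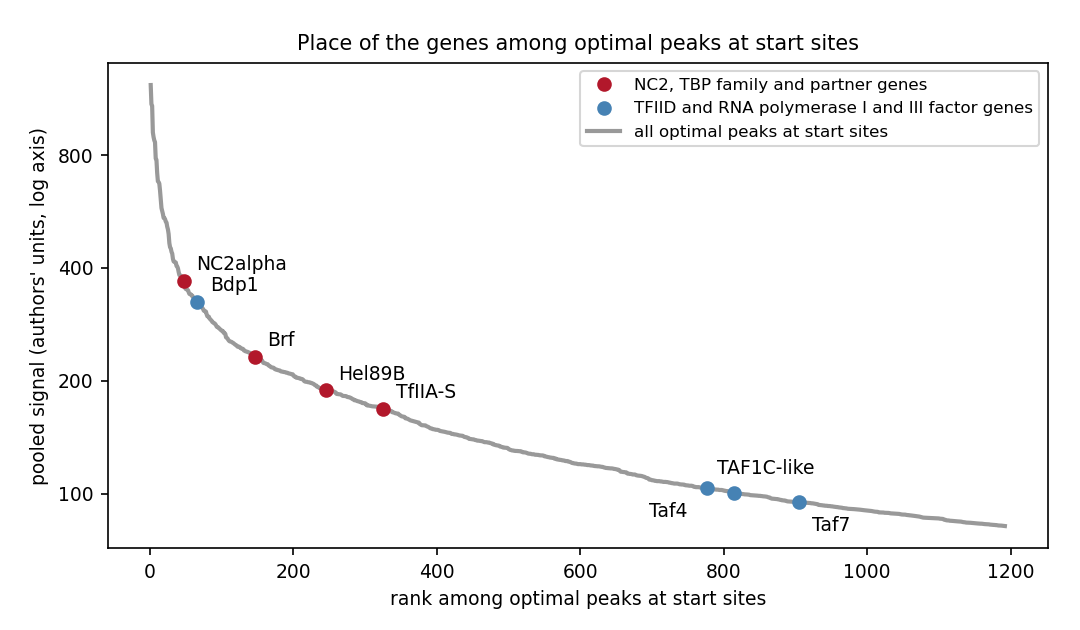
Pooled signal (authors' units, log axis) against rank for the 1192 optimal peaks at a TSS, with the named genes in red and the genes of the TFIID and RNA polymerase I and III lists in blue. NC2alpha at rank 47, Brf at 146, Hel89B at 245 and TfIIA-S at 325 lie above the median signal of 120.0 with Bdp1, while Taf4, TAF1C-like and Taf7 lie below it.

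Whole embryos of 0 to 24 h mix many tissues and stages, so strong binding in few cells and weak binding in many cannot be told apart. The lists hold no expression values, so the stage label was not checked against marker genes. The lowest listed signal was 81.95 in the optimal list and 23.78 in the pooled list. It was 14.57 in the replicate 1 list and 12.18 in the replicate 2 list. Absence from a list means that no peak of at least that signal was listed there. How close peaks were called or merged is not given, and absence does not show that NC2alpha was absent.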

How the data were processed

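Chromatin was sonicated (labelled size range 200 to 800 bp). The notes deposited with the lists describe relaxed peaks and background per replicate and for pooled replicates, made against a control alignment meant for filtering by irreproducible discovery rate (IDR), and the optimal list that this filter kept, on dm3 and dm6. The sources used here name no peak caller, aligner, version or IDR cutoff. Each peak's score, its signal, was used as the authors deposited it, and the optimal list was exactly the 2174 strongest of 30000 pooled peaks. The -log10 q value, as deposited by the authors, was at least 2.66 in the optimal list and reached 3.59; the deposited offset of each summit (other) placed the summits. The deposited p-value column holds -1 throughout. No reads were used, so depth is unknown and no interval was given.

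Summits on dm6, counted from 1, were matched to genes of Ensembl release 115 in Python 3.11.15 with numpy 2.4.6 and matplotlib 3.10.9. A summit was at a TSS within 500 bp of any annotated start, and a peak shared by several starts counted for each. Replicate values are those of the strongest overlapping replicate peak (at least 1 base). Base composition was examined after the sequences were seen. The dm3 lists were not used, since the annotation is on Release 6. All 31 symbols of the related lists matched, bip2, e(y)1 and rye through synonyms (Taf3, Taf9 and Taf12L). Named genes were the members, genes sharing or flanking them, rank neighbours at a TSS, and genes of the 5 related lists with an optimal peak; other genes of those lists named with values were chosen after their values were seen. The members, lists, motifs and rules were chosen with earlier results of these data known. The counting code was tested on simulated data. Alternatives were the distance, the assignment, the list length, single replicates and the overlap.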

Additional observations from a re-analysis of the deposited data

How the results depend on the processing

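No paired analysis was possible because both replicates are of 1 group. The count of 4 genes with an optimal peak at a TSS was 4 at 200 bp, at 1000 bp, with summits inside or nearest added, and in the strongest 1087 optimal peaks. It was 3 with only the nearest TSS, which drops Brf, and 5 in either single replicate, which adds TfIIA-L in replicate 2 and Trf2 in replicate 1. It moved to 7 in the 4348 strongest pooled peaks and to 7 in all pooled peaks. The share of all protein-coding genes was 10.5% in the main setting, 7.58% at 200 bp and 12.5% at 1000 bp. It was 7.71% with only the nearest TSS and 15.0% with summits inside or nearest added. By list it was 5.72% in the strongest 1087, 18.8% in the 4348 strongest and 51.3% in all pooled peaks. For single replicates it was 10.2% in replicate 1 and 10.7% in replicate 2. The TFIID count of 2 was 0 in the strongest 1087, 11 in all pooled peaks and 1 in either single replicate. The count of 2 for RNA polymerase I and III partners was 1 at 200 bp, 0 with only the nearest TSS, 1 in the strongest 1087 and 5 in all pooled peaks. The TFIIA paralogues went to 1 in all pooled peaks, and the other histone-fold genes to 1 in the 4348 strongest and 3 in all. Longer lists hold more genes by construction. Testis paralogues had 0 throughout. Stricter overlap changed no replicate value of the 7 main TSS peaks, and measuring from the representative TSS changed none of their 7 distances; weaker summits near another start did change, such as that of TfIIA-L at 310 bp, which became -2008 bp. Of 13 ranks in single replicates 5 moved by more than the spread set for them, TfIIB the most, to 51.9% of the list in replicate 2 against 12.2% in the pooled list. With 2 replicates, differences between neighbouring signals, such as Brf and Hel89B, are not resolved.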
